A study of Homo sapiens with 21 samples.

Results

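The 10 genes described here encode AP-1 subunits and related products of the immediate early response. They comprise the FOS family (FOS, FOSB, FOSL1 and FOSL2), the JUN family (JUN, JUNB and JUND), the transcription factors EGR1 and ATF3, and the survival and signalling effector IER3. They were taken by symbol from 57500 counted human genes, and all 10 were found and passed the filter on low counts. AP-1 is a dimer of a JUN protein with a FOS, ATF or second JUN protein that binds DNA through a basic leucine zipper. Growth factor and stress signals carried by MAP kinases switch several of these genes on within minutes, partly through serum response factor on their promoters. The RNAs of such genes decay quickly, whereas FOSL2 is made later and JUND is expressed more constantly. In urothelial and other epithelial cells, immediate early genes are known to respond to epidermal growth factor receptor signalling, injury and cell handling.

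RNA was sequenced from tumours of HT1376, an established human bladder carcinoma cell line, grown subcutaneously with Matrigel in female CB17 SCID mice that were 6 to 8 weeks old when the study began. These mice lack working T and B cells but keep macrophages, granulocytes, vessels and connective tissue. The groups, of 3 libraries each, received CPI-0209, valemetostat, MAK683, tazemetostat, PF-06821497, CPI-1205 or vehicle. Each compound was dosed orally once a day at 75 mg/kg, starting 11 to 15 days after the cells were implanted, when mean volume lay between 139 and 160 mm3. Collection was on day 15, 1 hour after that day's dose, so every group had been handled and dosed shortly before. The day from which day 15 is counted is not given here, so the length of dosing is not stated. The labels call the compounds EZH2 inhibitors. EZH2 is the catalytic subunit of PRC2, which places a repressive methyl mark on histone H3, whereas MAK683 targets EED, the subunit that reads that mark. All groups share 1 cell line, 1 dose and 1 time. The labels do not state whether libraries of a group came from different mice, and the spread behind each p-value may therefore be technical.

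Libraries held 9725690 (CPI-0209 library 3) to 25771778 counts, and the members had at least 84 counts in every library. All 10 markers fixed for the carcinoma cells were detected in every group, with summed levels of 11318 to 14953 CPM (counts scaled to a common library size) in CPI-0209 tumours and 20578 to 20808 CPM in vehicle tumours. Genes fixed as markers of other cells moved with treatment too. The host cells are of mouse and the counts are of human genes, and whether mouse reads were removed is not given. Whether these marker values came from host cells, mouse reads or carcinoma cells was not tested. Endothelial markers summed to 74.0 to 97.2 CPM with CPI-0209, 62.0 to 75.7 with valemetostat and 67.7 to 87.2 with MAK683. In vehicle they summed to 30.6 to 36.6 CPM. In CPI-0209 tumours 6 of 10 tested rose and 2 fell, where 22.3% of all tested genes were higher and 18.8% lower. Fibroblast markers rose in 8 and fell in 2 of 13 with CPI-0209 (summed CPM 1729 to 4068, against 1281 to 2083 in vehicle), and macrophage and granulocyte markers rose in 6 and fell in 1 of 11 (3709 to 4454, against 2747 to 3888). With PF-06821497 that sum was 4573 to 7473 CPM, above every vehicle and CPI-0209 library. There 3 of 11 rose, beside 5.96% of all genes, namely ADGRE1, S100A8 and S100A9 (named after their values were seen). Most of the sum was S100A9 and S100A8, both also made by squamous epithelium. S100A9 stood at 3221 ± 1106 CPM with PF-06821497 and 1918 ± 355 CPM in vehicle. Skeletal muscle markers summed to 407 to 1674 CPM with CPI-0209, with library 3 highest, and to 585 to 654 CPM in vehicle. The vehicle libraries were less alike in the median of these markers, which ran from -1.07 to 3.94 log2 CPM. With CPI-0209 that median ran from 3.59 to 7.02 log2 CPM. Lymphocyte markers summed to at most 5.21 CPM in any library and red blood cell markers to at most 2.54 CPM. Apart from mature red blood cells, these cell types can express immediate early genes. In bulk RNA, fewer cells of a type and less RNA per cell cannot be told apart, and the part of other cells in the results below was not tested beyond the covariate fit named there.

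In vehicle tumours the members spanned a wide range of levels. Per kilobase of the counted gene model, IER3 was highest at 238 ± 16.0 CPM per kb (SD, n = 3). JUNB followed at 183 ± 8.00 CPM per kb and JUND at 98.5 ± 9.04. JUN (56.0 ± 4.67), EGR1 (52.9 ± 11.6) and FOSL2 (51.8 ± 2.00 CPM per kb) came next and overlapped one another. FOS stood at 27.4 ± 6.31, FOSL1 at 23.3 ± 3.25 and ATF3 at 19.6 ± 3.06 CPM per kb, and neighbours in this order again overlapped. FOSB was lowest, at 4.42 ± 0.49 CPM per kb. Across the 21 libraries the highest level was 5.14 times the lowest for FOS, 4.0 times for EGR1 and 3.47 times for FOSB, but 1.58 times for JUND.

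Each compound was set against vehicle by edgeR's quasi-likelihood test, fitted once over the 21 libraries, and a gene was called at an adjusted p under 0.05 over 21958 genes. With CPI-0209, 1 member was higher and 4 were lower, where 41.1% of all tested genes were called, 22.3% higher and 18.8% lower. With valemetostat 1 was higher and 3 lower, where 27.3% of genes were called, 15.0% higher and 12.2% lower. MAK683 gave 1 higher and 1 lower member, beside 15.6% of genes called, 10.4% higher and 5.17% lower. PF-06821497 also gave 1 and 1, beside 9.55%, of which 5.96% higher and 3.59% lower. Tazemetostat and CPI-1205 gave 0 member calls by edgeR, and 0 genes in all. At an unadjusted p under 0.05 they gave 647 and 2713 genes. DESeq2 called 6 and 22 genes there and limma-voom 0 in both. The members called, 5, 4, 2 and 2 of 10 with CPI-0209, valemetostat, MAK683 and PF-06821497, are too few to be set apart from these shares of all genes. The libraries of compound and vehicle did not overlap for 7 members with CPI-0209 (55% of all genes), 7 with valemetostat (47.0%), 6 with MAK683 (36.0%), 2 with tazemetostat (10.9%), 2 with PF-06821497 (27.3%) and 7 with CPI-1205 (20%). The median log2 fold change of the 10 members was -0.22 with CPI-0209, -0.18 with valemetostat, -0.01 with MAK683, 0.01 with tazemetostat, -0.20 with PF-06821497 and -0.34 with CPI-1205, while that of all tested genes lay between -0.02 and 0.02. These 6 comparisons share the 3 vehicle libraries.

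**Figure D1:**
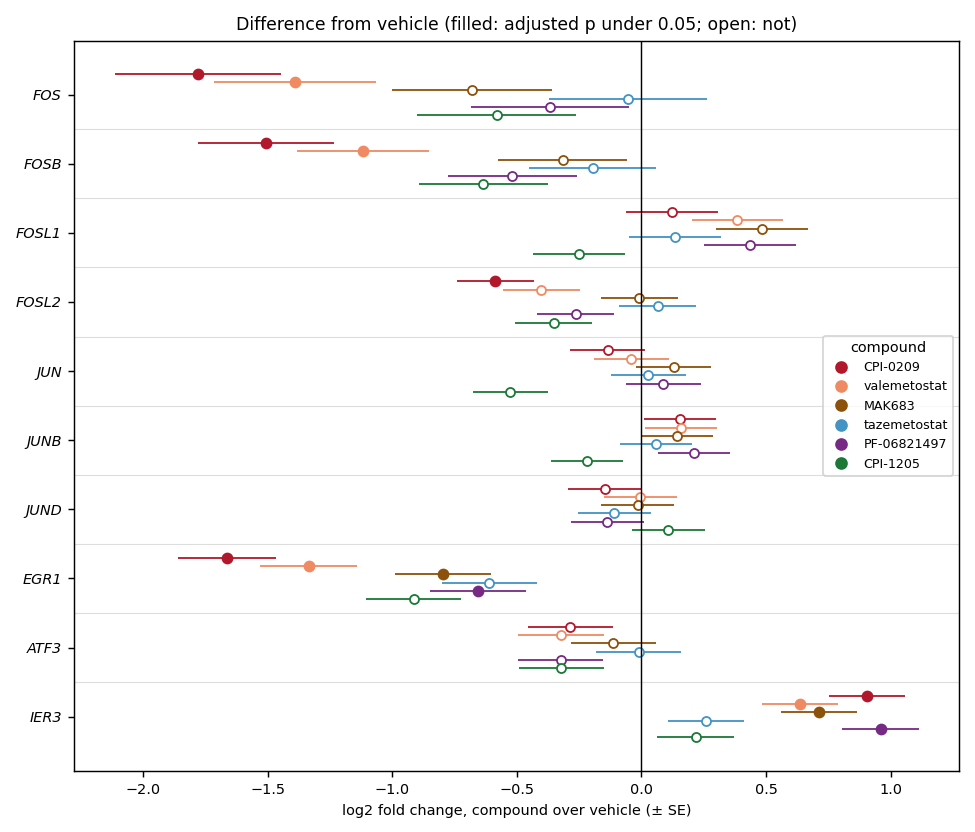
Log2 fold change of each gene, compound over vehicle, on the x axis, with bars of ± SE; genes run down the page and colours mark the 6 compounds, with filled points where the adjusted p was under 0.05. FOS, FOSB and EGR1 lie furthest left, at -1.78, -1.51 and -1.66 with CPI-0209, and IER3 lies on the right, at up to 0.96.

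FOS, the founding AP-1 subunit and a short-lived partner of JUN proteins, was lower with CPI-0209 and valemetostat. FOS (ENSG00000170345, hg38 chr14:75278774-75282230, plus strand) stood at 25.2, 24.2 and 28.2 CPM in CPI-0209 tumours, against 80.8, 112 and 73.3 CPM in vehicle tumours. All 3 treated libraries lay well below all 3 vehicle libraries, a log2 fold change of -1.78 ± 0.33 (SE, adjusted p 0.000306). Valemetostat libraries held 33.2, 46.4 and 21.8 CPM, again below vehicle without overlap, at -1.39 ± 0.33 (adjusted p 0.00352). MAK683 tumours, at 57.1, 50.6 and 58.4 CPM, did not overlap vehicle either, but the difference of -0.68 ± 0.32 did not pass (adjusted p 0.176). The tazemetostat libraries, at 68.2, 92.4 and 95.8 CPM, lay within or near the vehicle range. PF-06821497 libraries scattered from 34.7 to 106 CPM, and CPI-1205 libraries held 72.6, 66.7 and 38.5 CPM.

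FOSB, a related AP-1 subunit, showed the same pair of calls. FOSB (ENSG00000125740, chr19:45467995-45475179, plus strand) stood at 9.81, 7.99 and 8.03 CPM with CPI-0209, against 22.9, 27.7 and 23.1 CPM in vehicle. The fold change was -1.51 ± 0.27 on the log2 scale (adjusted p 0.000158), with no overlap. Valemetostat tumours held 10.5, 14.2 and 9.21 CPM, a difference of -1.12 ± 0.26 (adjusted p 0.00313). In MAK683 tumours FOSB stood at 22.8, 14.9 and 21.7 CPM, the highest just under the lowest vehicle library, and at -0.32 ± 0.26 it did not pass (adjusted p 0.485).

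EGR1, a zinc finger factor switched on by the ERK pathway and serum response factor, was lower with 4 of the 6 compounds. EGR1 (ENSG00000120738, chr5:138465490-138469315, plus strand) held 56.8, 52.0 and 48.2 CPM in CPI-0209 tumours, against 125, 181 and 193 CPM in vehicle tumours. Its level was 0.316 times that of vehicle, or -1.66 ± 0.20 (adjusted p 1.01e-06). With valemetostat it held 59.3, 83.5 and 54.6 CPM (-1.33 ± 0.19, adjusted p 2.43e-05), and with MAK683 97.8, 95.5 and 93.2 CPM (-0.80 ± 0.19, adjusted p 0.00596). None of these libraries reached the lowest vehicle library. PF-06821497 tumours held 105, 71.3 and 140 CPM and overlapped vehicle. Their difference of -0.66 ± 0.19 passed (adjusted p 0.0328) but was lost without vehicle library 2 (adjusted p 0.118), vehicle library 3 (0.190), PF-06821497 library 1 (0.0800) or PF-06821497 library 2 (0.144). CPI-1205 tumours held 86.5, 89.3 and 88.3 CPM and tazemetostat tumours 104, 99.2 and 122 CPM, all below every vehicle library. At -0.91 ± 0.19 and -0.61 ± 0.19 neither passed (adjusted p 0.279 and 1, unadjusted 0.000106 and 0.00434). With DESeq2, EGR1 passed with CPI-1205 (adjusted p 0.0124).

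**Figure D2:**
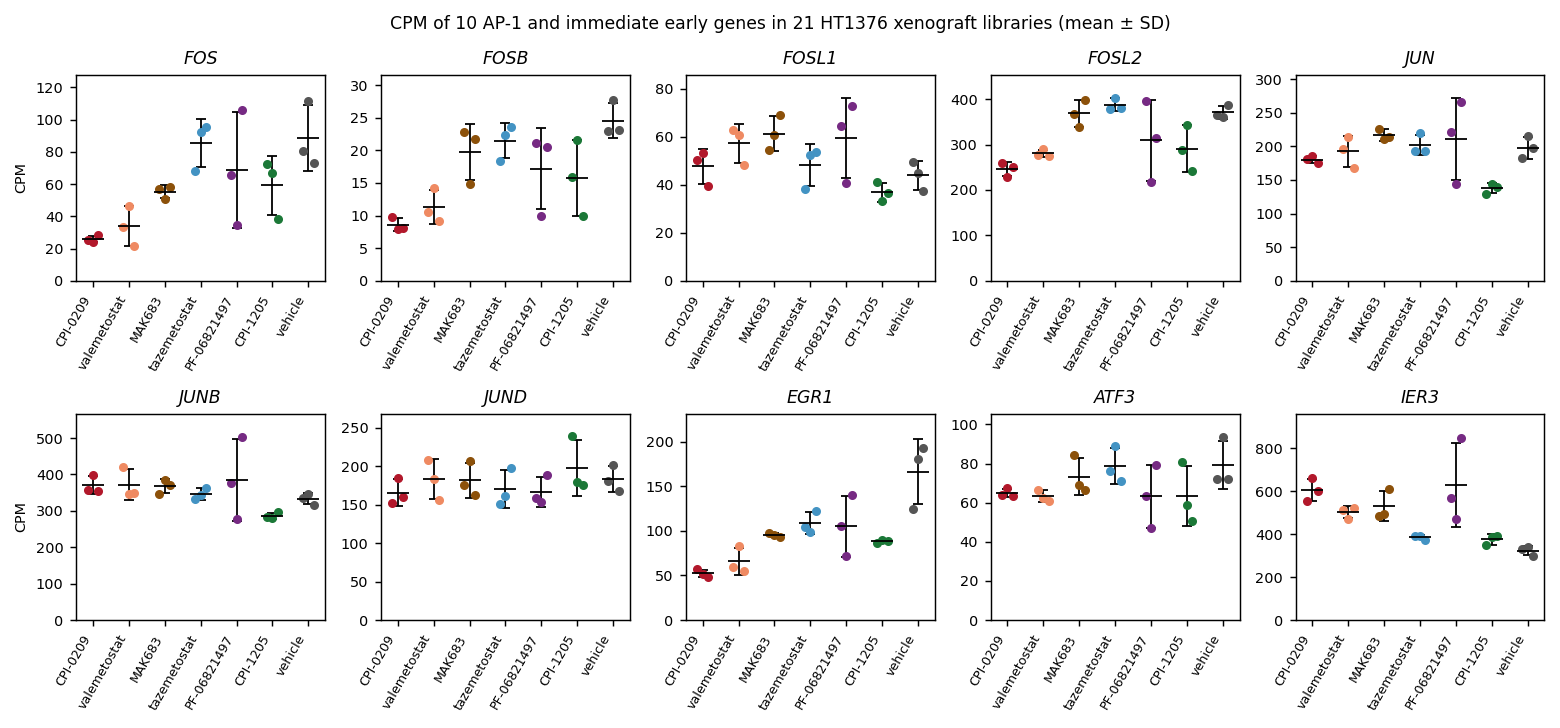
CPM of each gene in every library (points), by treatment group on the x axis, with the mean ± SD of 3 libraries as a line and whiskers; each y axis starts at 0. The CPI-0209 and valemetostat points of FOS, FOSB and EGR1 lie below all vehicle points, the IER3 points of 6 compounds lie above them, and the PF-06821497 points have the widest range for all members but FOSB and JUND, where CPI-1205 has it.

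The promoters of FOS, FOSB and EGR1 are shown because these genes fell together with CPI-0209 and valemetostat. The sequences are RefSeq's, on GRCh38.p14, and run from 250 bases before the transcription start. That of FOS is cut at 226 bases, because the counted gene model starts before the RefSeq start. Capitals mark the matches to 5 motifs, searched on both strands: TGACGTCA (the cyclic AMP response element), TGANTCA (the AP-1 site), the CArG box bound by serum response factor, GCGNGGGCG (the EGR site) and TATAAA (the TATA box).
FOS chr14:75278578-75278803 plus strand: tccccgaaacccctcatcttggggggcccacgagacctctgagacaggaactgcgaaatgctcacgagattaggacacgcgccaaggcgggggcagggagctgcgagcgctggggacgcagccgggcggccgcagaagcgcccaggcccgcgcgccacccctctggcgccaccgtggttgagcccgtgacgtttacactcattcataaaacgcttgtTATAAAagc
FOSB chr19:45467746-45467995 plus strand: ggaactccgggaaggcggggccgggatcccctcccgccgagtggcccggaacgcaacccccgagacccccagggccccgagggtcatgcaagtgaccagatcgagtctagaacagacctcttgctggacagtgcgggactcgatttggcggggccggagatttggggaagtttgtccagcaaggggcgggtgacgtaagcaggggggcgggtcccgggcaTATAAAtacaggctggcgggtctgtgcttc
EGR1 chr5:138465229-138465478 plus strand: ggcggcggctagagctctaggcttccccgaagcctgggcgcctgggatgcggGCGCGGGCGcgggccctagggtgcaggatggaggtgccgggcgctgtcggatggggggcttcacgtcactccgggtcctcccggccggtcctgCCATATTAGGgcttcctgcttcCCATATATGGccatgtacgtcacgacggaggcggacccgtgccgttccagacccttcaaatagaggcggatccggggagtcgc
TATAAA stood 28 to 33 bases before the RefSeq start in FOS and 25 to 30 bases before it in FOSB. EGR1 held 2 CArG boxes, CCATATTAGG at 96 to 105 bases and CCATATATGG at 74 to 83 bases before the start, and the EGR site GCGCGGGCG at 190 to 198 bases. Of 35116 RefSeq promoters with windows of 250 bases, 10.7% held TATAAA, 1.16% a CArG box, 8.41% GCGNGGGCG, 6.57% TGANTCA and 1.65% TGACGTCA. Among the 7 members with 1 promoter entry, JUNB also held TATAAA and JUND held TGACGTCA, and 0 held TGANTCA in these windows. Sites further upstream than these windows were not searched, for any of the motifs. The matches describe letters and say nothing of binding in these tumours.

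IER3, which limits apoptosis and sustains ERK activity, moved the other way. IER3 (ENSG00000137331, chr6:30743199-30744554, minus strand) stood at 556, 660 and 600 CPM with CPI-0209, against 331, 340 and 299 CPM in vehicle. This was 1.87 times the vehicle level (0.91 ± 0.15 on the log2 scale, adjusted p 7.86e-05). It was also higher with valemetostat, at 511, 472 and 524 CPM (0.64 ± 0.15, adjusted p 0.00356), and with MAK683, at 483, 496 and 611 CPM (0.71 ± 0.15, adjusted p 0.00243). PF-06821497 libraries held 569, 471 and 846 CPM, all above vehicle (0.96 ± 0.15, adjusted p 0.000365); the macrophage and granulocyte sum given above was also highest with this compound, and its part in the call was not tested. Tazemetostat libraries held 393, 393 and 375 CPM and CPI-1205 libraries 349, 386 and 392 CPM. These 6 libraries also lay above vehicle, but the differences of 0.26 ± 0.15 and 0.22 ± 0.15 did not pass (adjusted p 1 and 0.558).

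The CPI-0209 calls were also taken without library 3, the smallest and the one highest in muscle markers. FOS then stood at -1.85, FOSB at -1.47, EGR1 at -1.61 and IER3 at 0.91. With the median log2 CPM of the skeletal muscle markers in each library as a covariate these were -1.97, -1.86, -1.72 and 0.84. FOS, FOSB, EGR1 and IER3 passed in both fits, with adjusted p of at most 0.00142. FOSL2, described next, also passed, at -0.60 without library 3 (adjusted p 0.0133) and -0.84 with the covariate (adjusted p 9.22e-05).

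FOSL2, a FOS family subunit that is made later and lasts longer than FOS, passed with CPI-0209 and, in the fit reported, with no other compound against vehicle. It held 260, 230 and 251 CPM there, against 366, 360 and 387 CPM in vehicle (-0.59 ± 0.16, adjusted p 0.00437). Valemetostat libraries, at 277, 290 and 275 CPM, were all below vehicle too, at -0.40 ± 0.15 (adjusted p 0.0586). That difference passed in 4 alternatives, namely with no low-count filter (adjusted p 0.0487), with the muscle covariate (0.00482), without the 3 libraries whose titles mark them as resubmitted (0.0198) and with only the groups compared (0.0187). FOSL1, a subunit linked to invasive carcinoma, passed with no compound in that fit. With CPI-0209 its mean was 47.7 CPM, against 43.9 CPM in vehicle, and the libraries overlapped (0.12 ± 0.19, adjusted p 0.633). It stood at 54.3, 60.8 and 69.0 CPM with MAK683, against 49.4, 45 and 37.3 CPM in vehicle, without overlap (0.48 ± 0.18, adjusted p 0.0832). With PF-06821497 it held 64.4, 40.9 and 73.0 CPM (0.44 ± 0.18, adjusted p 0.152), and it passed without PF-06821497 library 2 (0.65, adjusted p 0.0208).

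The JUN family passed the test with no compound. JUN, the main partner of FOS, held 129, 144 and 139 CPM in CPI-1205 tumours, against 182, 215 and 197 CPM in vehicle, without overlap (-0.53 ± 0.15, adjusted p 0.279, unadjusted 0.00216). Its interval with CPI-0209 ran from -0.45 to 0.18 on the log2 scale. JUNB, a weaker activator that can restrain JUN, stood at 358, 400 and 355 CPM with CPI-0209, just above the 336, 346 and 317 CPM of vehicle (0.15 ± 0.15, adjusted p 0.421). JUND, which is expressed more constantly than the others, held 152, 185 and 160 CPM with CPI-0209 and 181, 201 and 168 CPM in vehicle, and overlapped (interval -0.45 to 0.16). ATF3, a stress-induced factor that often represses, held 64.2, 67.5 and 63.5 CPM with CPI-0209, below the 72.3, 93.5 and 71.9 CPM of vehicle (-0.28 ± 0.17, adjusted p 0.196). Their intervals do not show that these genes were equal between groups.

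The make-up of the FOS family was then compared per kilobase, as a description. FOS made up 11.6 ± 1.39% of the summed family level in CPI-0209 tumours and 12.5 ± 3.35% in valemetostat tumours, against 25.4 ± 4.31% in vehicle (SD, n = 3). FOSL1 made up 36.4 ± 4.64% with CPI-0209 and 36.9 ± 2.34% with valemetostat, against 21.7 ± 2.58% in vehicle. The FOSL1 level itself was called in neither comparison, whereas FOS, part of the same sum, was lower in both. Neither share overlapped vehicle in these 2 groups. FOSL2 held the largest share in every group, at a mean of 44.2% to 49.9%. With MAK683 the FOS share was 16.3 ± 0.82% and the FOSL1 share 31.1 ± 2.48%, and neither overlapped vehicle either. With PF-06821497 the FOS share, 20.7 ± 5.98%, overlapped vehicle and the FOSL1 share, 32.0 ± 1.77%, did not. With CPI-1205 these shares were 22.1 ± 3.99% and 24.5 ± 4.8%, and both overlapped vehicle. Tazemetostat tumours stood near vehicle, at 23.9% and 23.1%. In the JUN family, JUNB held 52.1% to 59.3% of the summed level, JUND 25.4% to 35% and JUN 12.9% to 17.0% in group means. These are shares of RNA, not of protein.

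**Figure D3:**
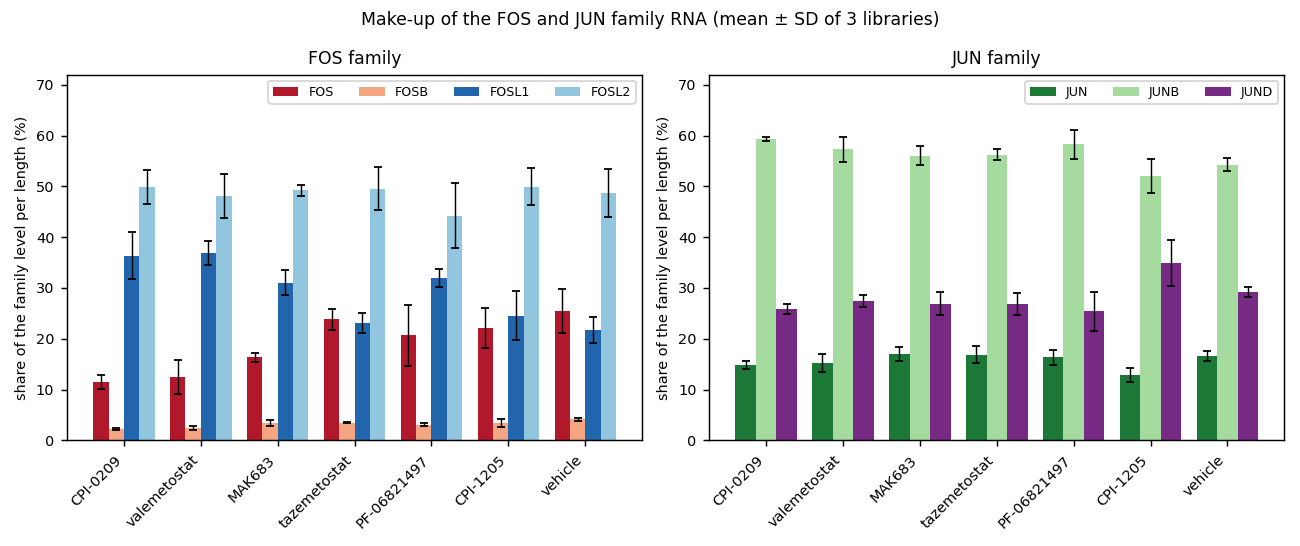
Share of each subunit in the summed level per kilobase of its family (%, y axis), by group on the x axis, as mean ± SD of 3 libraries. The FOS bar is 11.6% with CPI-0209 and 25.4% in vehicle, the FOSL1 bar 36.4% and 21.7%, and the FOSL2 and JUNB bars are the tallest in each group.

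The compounds were compared with one another at the same dose and time. An overall test among the 6 passed for 7 members, where 32.3% of all genes passed: EGR1 (adjusted p 0.00101), IER3 (0.00131), FOS (0.00328), FOSB (0.00448), FOSL2 (0.0134), JUN (0.0178) and FOSL1 (0.0272). JUNB (0.182), ATF3 (0.448) and JUND (0.614) did not pass. In 15 pairs of compounds, with p-values adjusted over all genes and pairs together, 31 of 150 member differences passed, beside 11.6% of all differences. FOS and EGR1 had 6 such pairs each, FOSB and IER3 5 each, JUN 4, FOSL1 3 and FOSL2 2. Leaving out 1 library at a time gave 23 to 49 member differences, the most without PF-06821497 library 2. FOS then had 3 pairs without CPI-0209 library 1 or 2 or CPI-1205 library 2, and FOSB 3 without CPI-0209 library 2 or 3, valemetostat library 3 or tazemetostat library 2. IER3 had 8 without PF-06821497 library 2 or 3, and JUN 2 without tazemetostat library 2 or CPI-1205 library 1. FOSL1 had 0 without CPI-1205 library 2. FOSL2 had 1 without CPI-0209 library 2 or MAK683 library 3 and 6 without PF-06821497 library 1 or 2, and JUNB had 4 without PF-06821497 library 2. The overall call of JUN was lost without CPI-1205 library 1 (adjusted p 0.0704) or 3 (0.0645), and that of FOSL1 without CPI-1205 library 2 (0.101) or 3 (0.0781) or MAK683 library 3 (0.0506). Without the resubmitted libraries, which leaves CPI-1205 with 1, both were lost (0.191 for JUN and 0.355 for FOSL1) and had 0 pairs.

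CPI-0209 differed from tazemetostat in 5 members, where 29.3% of genes differed: FOS (-1.73 ± 0.33, adjusted p 0.00167), FOSB (-1.31 ± 0.27, 0.00242), EGR1 (-1.05 ± 0.20, 0.000815) and FOSL2 (-0.65 ± 0.16, 0.00701) were lower and IER3 was higher (0.65 ± 0.15, 0.00691). Against MAK683, 4 members were lower with CPI-0209 (4.44% of genes called lower), namely FOS (-1.10), FOSB (-1.19), FOSL2 (-0.58) and EGR1 (-0.87). FOS, FOSB and EGR1 were also lower than with PF-06821497 (6.73% of genes called lower) and than with CPI-1205 (28.4% called in either direction), and IER3 was higher than with CPI-1205 (0.69). Valemetostat was lower than tazemetostat in FOS (-1.34), FOSB (-0.92) and EGR1 (-0.72), beside 7.0% of genes called lower. It was lower than PF-06821497 in FOS (-1.02) and EGR1 (-0.68), beside 2.00%.

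No member passed between CPI-0209 and valemetostat, where 3.48% of genes did. The 95% intervals of that difference were -1.08 to 0.30 for FOS, -0.96 to 0.18 for FOSB, -0.73 to 0.07 for EGR1 and -0.05 to 0.59 for IER3. Valemetostat and MAK683 (1.48% of genes), MAK683 and tazemetostat (9.89%) and MAK683 and PF-06821497 (3.55%) also had 0 member calls. JUN, at 137.5 ± 7.60 CPM in CPI-1205 tumours, was higher with valemetostat (0.49 ± 0.15), MAK683 (0.66 ± 0.15), tazemetostat (0.55 ± 0.15) and PF-06821497 (0.61 ± 0.15) than with CPI-1205. FOSL1 was higher than with CPI-1205 in valemetostat (0.63), MAK683 (0.73) and PF-06821497 (0.68) tumours, and IER3 in MAK683 (0.50) and PF-06821497 (0.74) tumours. Of all genes, 11.4% were higher with valemetostat than with CPI-1205, 9.47% with MAK683, 0.792% with tazemetostat and 4.70% with PF-06821497. IER3 was lower with tazemetostat than with PF-06821497 (-0.70 ± 0.15), beside 3.30% of genes called lower.

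Libraries of 1 group deviated together over the members. The PF-06821497 libraries carry different replicate numbers in their titles and in the headers of their counts, and are numbered here by title. PF-06821497 library 2 was the lowest of its group for all 10 members, and library 3 was the highest for 8. Vehicle library 2 was highest for 7, valemetostat library 3 lowest for 8 and tazemetostat library 1 lowest for 7. Within groups, deviations from the group mean correlated positively for 44 of the 45 pairs of members. These pairs share the same libraries and are not independent. Pairs of other genes were not counted, so whether this is particular to the members was not tested.

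**Figure D4:**
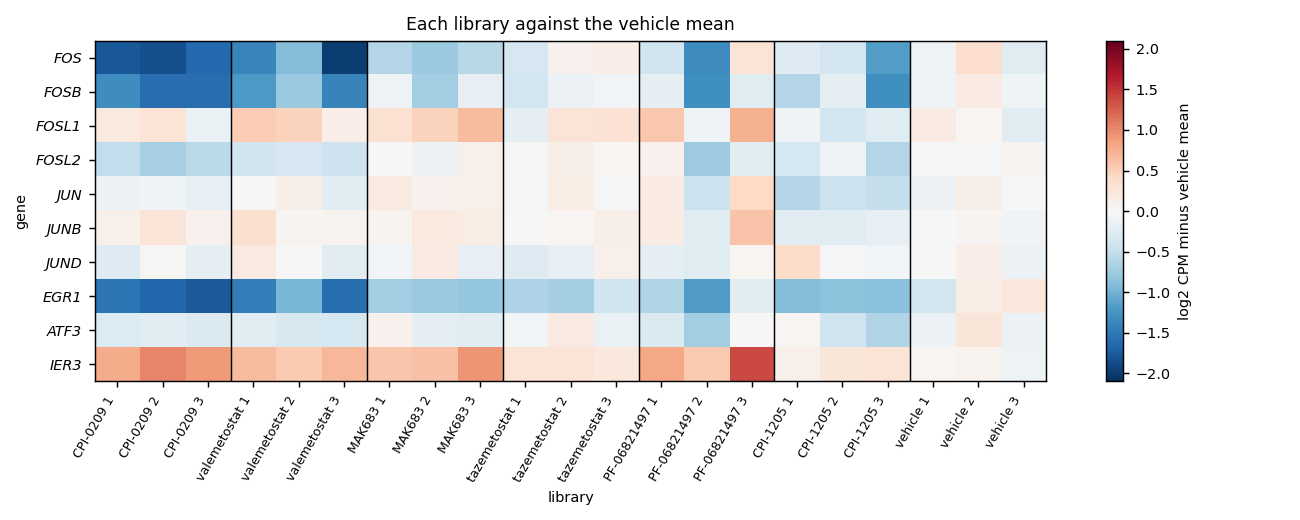
Each of the 10 genes (rows) in each of the 21 libraries (columns, grouped by treatment) as log2 CPM minus the vehicle mean, blue for lower and red for higher. The FOS, FOSB and EGR1 rows are blue in all CPI-0209 and valemetostat libraries, the IER3 row is red in all libraries of these 2 compounds, and PF-06821497 libraries 2 and 3 differ in colour within their group.

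The members that passed against vehicle were matched with the 3 other genes whose log2 CPM followed theirs best over the 21 libraries, as a description. FOS was followed by BNIP3L (Pearson r 0.951), ADM (0.946) and KDM3A (0.943), 3 genes known to respond to low oxygen. FOSB was followed by STK24 (0.941), the hexokinase gene HK2 (0.933) and SNX25 (0.931), and FOSL2 by FOXJ2 (0.950), ZNF592 (0.944) and DIAPH1 (0.940). EGR1 was followed by MBD1 (0.910), PERP (0.910) and KRT10 (0.909), the last a keratin of differentiating squamous cells. IER3 was followed by SLC25A20 (0.906), SQOR (0.904) and C12orf54 (0.897). All 21 libraries share their treatment groups, so these values carry the group differences as well as the spread within groups.

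Other genes of the pathway were read from lists, by counts, with log2 fold changes ± SE in parentheses beside mean CPM ± SD (n = 3). Of 33 other immediate early genes, 7 rose and 9 fell with CPI-0209 (22.3% and 18.8% of all genes), with a median log2 fold change of -0.10. The 7 that rose were 4 without vehicle library 1 or CPI-0209 library 3. EGR3, a relative of EGR1, stood at 9.52 ± 1.63 CPM with CPI-0209 and 29.02 ± 4.53 CPM in vehicle (-1.62 ± 0.31, adjusted p 0.000278), and TRIB1, a pseudokinase, at 53.6 ± 4.88 and 101 ± 3.09 CPM (-0.92 ± 0.12, adjusted p 2.35e-06). ARC, at 8.11 ± 3.32 against 1.20 ± 0.22 CPM (2.74 ± 0.36, adjusted p 4.23e-06), and SOCS3, an inhibitor of cytokine signalling at 30.3 ± 10.3 against 7.23 ± 0.52 CPM (2.06 ± 0.25, adjusted p 1.07e-06), were higher. With valemetostat 4 rose and 7 fell (15.0% and 12.2% of all genes), with EGR3 at -1.46 ± 0.30 and SOCS3 at 1.49 ± 0.24. The 7 were 4 without vehicle library 2 or 3 and 3 without valemetostat library 1, and the 4 were 2 without vehicle library 1. With MAK683 6 rose and 1 fell (10.4% and 5.17% of all genes), and with PF-06821497 2 and 1 (5.96% and 3.59%). Leaving out 1 library gave 4 to 5 and 1 to 2 for MAK683, and 0 to 5 and 0 to 1 for PF-06821497. These counts were not tested against the shares of all genes.

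Of 20 MAP kinases and factors of the serum response, 1 rose and 8 fell with CPI-0209 (22.3% and 18.8% of all genes) and 11 were not called (median -0.26). Those lower included the ERK kinase gene MAPK3 at 90.6 ± 11.2 against 152 ± 3.26 CPM (-0.74 ± 0.17, adjusted p 0.00138) and the serum response cofactor gene MRTFA at 41.5 ± 5.04 against 64.2 ± 1.58 CPM (-0.63 ± 0.15, adjusted p 0.00247). MAPK10, a JNK kinase gene, fell (-0.95 ± 0.19), and CREM, of the cyclic AMP response, rose (0.81 ± 0.15). The 8 that fell were 5 without vehicle library 3. With valemetostat 1 rose and 7 fell (15.0% and 12.2% of all genes), but 2 fell without vehicle library 3 or valemetostat library 1 and 3 without valemetostat library 3. Of the 9 tested partners of AP-1, 4 rose and 1 fell with CPI-0209 (2 without CPI-0209 library 3), with BATF3 at 1.19 ± 0.077 against 0.314 ± 0.13 CPM (1.92 ± 0.38, adjusted p 0.000398) and MAFG at 110 ± 9.02 against 74.2 ± 1.80 CPM (0.57 ± 0.10, adjusted p 0.00012). The log2 fold change was 1.5 ± 0.34 for BATF2 (adjusted p 0.00143) and 0.05 ± 0.16 for MAFF (adjusted p 0.845).

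Of 7 ERBB ligand genes, 5 rose and 0 fell with CPI-0209 (22.3% and 18.8% of all genes) and with valemetostat (15.0% and 12.2%), with medians of 1.06 and 1.01, and 4 rose with MAK683 (10.4% of all genes) and 3 with PF-06821497 (5.96%). HBEGF stood at 310 ± 32.3 CPM with CPI-0209 and 117 ± 18.8 CPM in vehicle (1.41 ± 0.23, adjusted p 4.75e-05), and AREG at 290 ± 8.48 and 133 ± 11.3 CPM (1.12 ± 0.15, adjusted p 3.92e-06). TGFA (0.90 ± 0.17) and EGF (1.06 ± 0.28) were higher as well. Of 18 feedback and output genes of ERK, 11 rose and 3 fell with CPI-0209 and 9 and 3 with valemetostat. With MAK683 these were 7 and 1, and with PF-06821497 3 and 2. They stand beside the same shares of all genes (5.17% lower with MAK683 and 3.59% with PF-06821497). With 1 library left out, those that rose were 9 to 11, 6 to 9, 5 to 7 and 1 to 3, in that order of compounds. Those that fell were 2 to 3, 2 to 3, 0 to 1 and 1 to 2. DUSP4, a phosphatase that switches MAP kinases off, stood at 349 ± 27.5 against 183 ± 13.7 CPM (0.93 ± 0.11, adjusted p 9.8e-07), and ETV4 at 24.6 ± 5.13 against 11.0 ± 0.50 CPM (1.16 ± 0.16, adjusted p 9.96e-06). The cyclin gene CCND1 rose to 155 ± 9.60 CPM with CPI-0209, against 61.7 ± 2.99 CPM in vehicle (1.33 ± 0.19, adjusted p 8.7e-06), whereas the receptor gene EPHA4 fell (-1.53 ± 0.22, adjusted p 9.17e-06).

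Of 16 genes known as AP-1 targets, 11 rose and 2 fell with CPI-0209 (median 1.21, beside 22.3% of all genes higher and 18.8% lower), and 4 fell without CPI-0209 library 2. With valemetostat 10 rose and 2 fell (1 without vehicle library 3), beside 15.0% and 12.2% of all genes. With MAK683 these were 8 and 2 (1 fell without any one of 6 libraries), beside 10.4% and 5.17%, and with PF-06821497 9 and 0 (1 fell without PF-06821497 library 3), beside 5.96% and 3.59%. Tazemetostat and CPI-1205 gave 0 and 0. MMP1, a collagenase, stood at 252 ± 32.1 CPM in CPI-0209 tumours and 15.9 ± 1.57 CPM in vehicle (3.98 ± 0.26, adjusted p 1.26e-09), with 222 ± 44.9 CPM after valemetostat and 26.8 ± 2.18 CPM after tazemetostat. MMP10 (4.89 ± 0.22, adjusted p 1.37e-11), MMP13 (3.85 ± 0.28, adjusted p 2.89e-09) and the urokinase receptor gene PLAUR (2.48 ± 0.19, adjusted p 4.57e-09) were also higher with CPI-0209. Fibroblasts and macrophages, whose markers rose with CPI-0209 in the counts given above and whose macrophage and granulocyte sum was highest with PF-06821497, also express several of these genes, and their part in these counts was not tested.

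**Figure D5:**
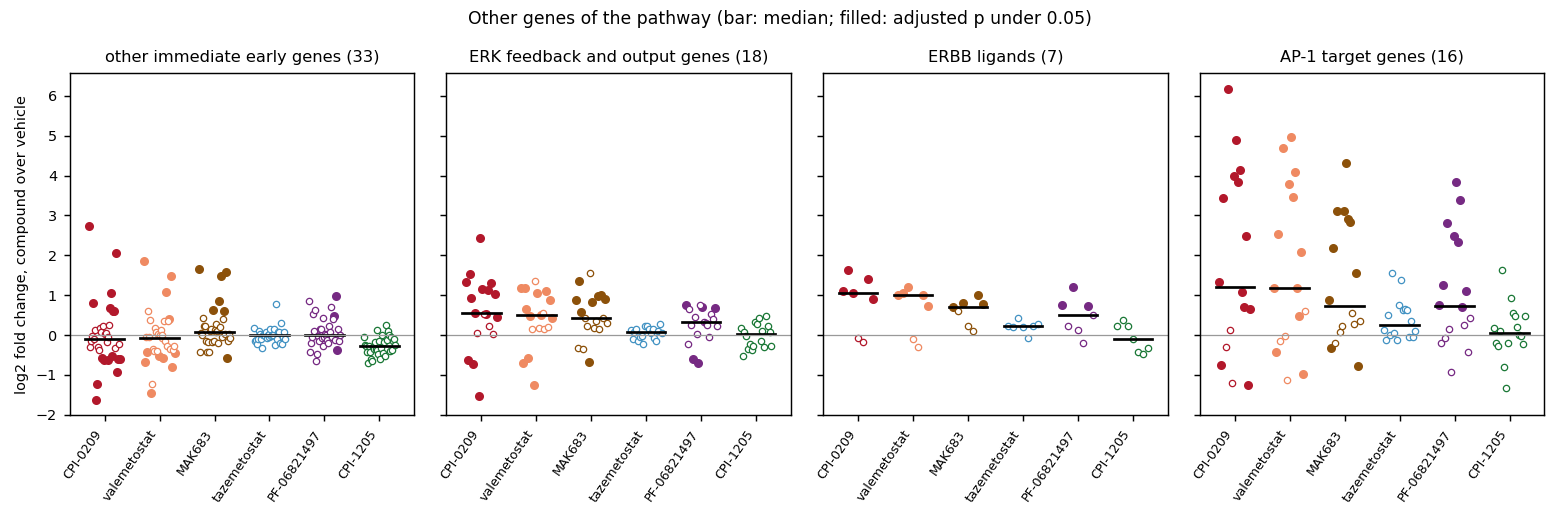
Log2 fold change of each tested gene of 4 lists (compound over vehicle, y axis), by compound on the x axis, with a bar at the median and filled points where the adjusted p was under 0.05. With CPI-0209 the medians are -0.10 for the other immediate early genes, 0.55 for ERK outputs, 1.06 for ERBB ligands and 1.21 for AP-1 targets.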

How the data were processed

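The deposited tables, 1 for each library, give unnormalised counts by Ensembl gene. Per the submitters' processing notes, STAR 2.7.3a and RSEM 1.3.1 were used with hg38. Per the labels' protocols, tumour pieces were snap-frozen, RNA was extracted with Trizol, and TruSeq v2 libraries were read as 150-base pairs on an Illumina HiSeq. Not given in the sources used here are the counting program, the strand setting, the annotation release and whether mouse reads were removed. Symbols came from a reference list of gene names, which held 56410 of the 57500 genes, and from GENCODE 29 where that list gave none. All 10 members had the same start and end in GENCODE 29.

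Genes kept by filterByExpr (21958, with 99.6% to 99.9% of counts) were scaled by TMM and fitted with edgeR 4.0.16 in R 4.3.3, as a quasi-likelihood fit of 7 groups with robust dispersions and 14 residual degrees of freedom. Tests were two-sided, with Benjamini-Hochberg adjustment over all genes, and over all genes and pairs together for the 15 pairs of compounds. The SE is the log2 fold change over the square root of F, and intervals are 95% and unadjusted. CPM per kilobase uses the gene length in the tables. The steps were tested on simulated data in which far fewer genes changed than were called with CPI-0209, as many raised as lowered. That test therefore does not cover scaling where many genes move. Alternatives were other scalings and filters, DESeq2 1.42.0, limma-voom (limma 3.58.1), only the groups compared, a replicate block, a muscle marker covariate, omission of 3 libraries marked as resubmitted in their titles (for PF-06821497, the header of another library's counts carries that mark), and each library left out.

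The members, lists and tests were chosen with earlier results of these data known. Named genes were the 10 members, up to 4 genes of each list with the smallest overall p, and the 3 genes nearest to each member called. Nothing is reported of members' proteins, and FOSL1, ATF3 and IER3 promoters were not used here.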

Additional observations from a re-analysis of the deposited data

How the results depend on the processing

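Of 60 member comparisons with vehicle, 13 were called, and 12 of these were called in the same direction in all 16 alternatives. The exception was EGR1 with PF-06821497, which was lost in 6, among them the fit of only the groups compared (-0.63, adjusted p 0.161) and the fit without resubmitted libraries (-0.64, adjusted p 0.115). Upper-quartile scaling moved the median of all genes to 0.12 with CPI-0209, and 67.5% of its calls were then higher, against 54.2% in the fit reported. For valemetostat these were 67.2% and 55.2%. There FOS, FOSB, FOSL2, EGR1 and IER3 with CPI-0209 stood at -1.65, -1.37, -0.45, -1.53 and 1.04.

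Of the 47 results not called, 11 passed in at least 1 alternative. With valemetostat, 5 members were called with no low-count filter, with the muscle covariate and without resubmitted libraries, where FOSL2 was added, and 6 with only the groups compared, where FOSL2 and FOSL1 (0.44, adjusted p 0.0292) were added. The members called with MAK683 numbered 4 with no low-count filter and 4 in the fit of only the groups compared, where FOS and FOSL1 were added, and those with PF-06821497 numbered 1 with only the groups compared. FOSL1 passed with PF-06821497 with no filter (adjusted p 0.0497), and FOSL2 did without resubmitted libraries (0.0401), where EGR1 was lost. With no filter, CPI-1205 gave 4 (FOS, FOSB, JUN and EGR1) and tazemetostat 1 (EGR1, adjusted p 0.0279), and DESeq2 gave 1 with CPI-1205. All genes called with tazemetostat numbered 1 with upper-quartile scaling, 46 with no filter, 6 with DESeq2, 3 without resubmitted libraries and 12 in the fit of only the groups compared. For CPI-1205 they were 358 with no filter, 22 with DESeq2 and 226 without resubmitted libraries.

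Log2 fold changes changed sign in 14 uncalled results. These lay between -0.32 (ATF3 with CPI-1205) and 0.21 (JUNB with PF-06821497) in the fit reported, and the values of opposite sign were at most 0.148 in size. JUND with valemetostat stood at 0.0221 by RLE factors and by DESeq2, 0.0948 by upper quartile, 0.00211 with no filter, 0.0432 with at least 1 CPM in 3 libraries, 0.0483 with the muscle covariate, 0.00413 without resubmitted libraries and 0.0449 with only the groups compared. JUN with valemetostat stood at 0.0571 by upper quartile, 0.00684 with at least 1 CPM and 0.00837 with only the groups compared. With CPI-0209, JUN was 0.000916 by upper quartile and JUND 0.00469 with the covariate. With MAK683, FOSL2 was 0.0358, 0.0144 and 0.00996 and JUND 0.0338, 0.00984 and 0.00399 by upper quartile, 1 CPM and only the groups compared, and JUND 0.0171 with the covariate. ATF3 was 0.00036 with tazemetostat by upper quartile and 0.067 with CPI-1205 without resubmitted libraries.

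Leaving out 1 library at a time gave 0 to 1 genes called with tazemetostat, 0 to 4 with CPI-1205 and 1041 to 1995 with PF-06821497, and 1 to 2 members called with PF-06821497, 5 to 8 in the overall test and 23 to 49 between pairs. Results that changed sign ranged from -0.132 to 0.0753 (JUN) and -0.113 to 0.121 (JUND) with valemetostat, from -0.126 to 0.0757 (JUND), -0.215 to 0.0166 (ATF3) and -0.0558 to 0.0449 (FOSL2) with MAK683, from -0.0382 to 0.0901 (JUN), -0.175 to 0.148 (FOS) and -0.109 to 0.125 (ATF3) with tazemetostat, from -0.112 to 0.298 (JUN) and -0.0254 to 0.399 (JUNB) with PF-06821497, and from -0.055 to 0.191 (JUND) with CPI-1205. The causes were not tested.

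List counts moved as well. Other immediate early genes higher with CPI-0209 were 4 with the muscle covariate. Those lower with valemetostat were 11 with the covariate, 4 with at least 1 CPM and 3 with upper-quartile scaling, and those higher 8 with only the groups compared. MAP kinase list genes lower with valemetostat were 4 with upper-quartile scaling.

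Libraries with the same replicate number did not deviate together (mean r -0.0588 over 63 such pairs, 23 of them over 0.1, and 3 libraries best matched by their own number). With the number as a replicate block, CPI-0209, valemetostat, MAK683 and PF-06821497 gave 8609, 5634, 3141 and 1795 genes called, against 9017, 5987, 3415 and 2098, and the members called stayed at 5, 4, 2 and 2. FOSB had the fewest counts of the members, with 84 in 1 library.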
